A study of Drosophila melanogaster with 2 samples.

Results

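A set of 746 Rough binding peaks was described that both biological replicates detected in their own peak lists. Members were chosen by overlap: a peak of the thresholded list pooled over both replicates was kept when it overlapped, by at least 1 bp, a peak of the thresholded list of replicate 1 and a peak of that of replicate 2. They were 746 of the 1883 pooled peaks on the named chromosome arms, while 86 of the 1969 pooled peaks lay on unplaced sequence and were left out. Of the other 1137 pooled peaks, 516 overlapped the list of replicate 1 only, 233 that of replicate 2 only and 388 neither list. The rule uses the presence of a peak in each replicate, which follows signal strength, so signal values and q values of the members are given as a description. The material was whole fly embryos aged 0 to 24 h of a transgenic strain with an insertion for Rough (ro) fused to eGFP, immunoprecipitated with an antibody against GFP after sonication to fragments of 200 to 800 bp. There was 1 group with 2 biological replicates, no control library was used here, and the lists hold no read counts, so depth is unknown. Embryos were not dissected, so a weak peak and a peak present in few cells cannot be told apart.

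Rough is a transcription factor with a homeodomain, a DNA-binding fold whose members commonly recognise short A+T-rich words with the core TAAT. It is best known from the developing compound eye, where it acts in the spacing and fate of photoreceptors. Promoters lie just upstream of transcription starts, and a pair of genes transcribed away from each other can share the stretch between their starts. In ChIP-seq, DNA fragments bound by the tagged protein pile up into a peak, and the summit is the base with the highest pile.

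Sequence at the summits is shown for the strongest promoter members, because the results on base composition and words below turn on it. Each line gives the nearest protein-coding gene and 101 bases centred on the summit, 5′ to 3′ on the plus strand of the Release 6 assembly (dm6 coordinates), credited to RefSeq. The first set holds the 6 strongest members with the palindromic word TAATTA, a core shared by many homeodomain sites, on the arms from which sequence is shown. Capitals mark that word.
CG7601, chr3R:29736790-29736890, + strand: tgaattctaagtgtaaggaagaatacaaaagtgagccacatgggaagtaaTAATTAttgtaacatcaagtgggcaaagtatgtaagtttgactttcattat
Tcs5, chr3L:5139441-5139541, + strand: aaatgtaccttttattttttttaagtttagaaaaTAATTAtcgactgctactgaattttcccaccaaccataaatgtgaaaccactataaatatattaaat
CG5611, chr3R:27636151-27636251, + strand: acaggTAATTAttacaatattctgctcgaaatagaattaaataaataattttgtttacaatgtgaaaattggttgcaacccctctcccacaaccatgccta
PNPase, chr3R:31404599-31404699, + strand: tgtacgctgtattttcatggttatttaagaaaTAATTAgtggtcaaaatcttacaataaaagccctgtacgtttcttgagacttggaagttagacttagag
CG18549, chr3R:12449140-12449240, + strand: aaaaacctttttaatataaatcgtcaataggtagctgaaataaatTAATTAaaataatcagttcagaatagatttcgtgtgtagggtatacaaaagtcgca
CG1635, chr3R:31588482-31588582, + strand: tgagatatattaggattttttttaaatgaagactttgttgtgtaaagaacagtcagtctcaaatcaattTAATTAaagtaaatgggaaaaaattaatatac

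The second set holds the 6 strongest promoter members without TAATTA on the same arms. Capitals mark runs of 8 or more bases made of A and T only. The longest such run per window was 10 to 14 bases here. In the first set, where runs are not marked, it was 9 to 21 bases.
Ugalt, chrX:2703832-2703932, + strand: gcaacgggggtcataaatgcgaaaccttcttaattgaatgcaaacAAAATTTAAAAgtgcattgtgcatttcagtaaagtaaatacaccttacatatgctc
CG14100, chr3L:19590553-19590653, + strand: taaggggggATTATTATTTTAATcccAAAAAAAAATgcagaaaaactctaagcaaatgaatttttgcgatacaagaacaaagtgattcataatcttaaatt
ph-p, chrX:2137289-2137389, + strand: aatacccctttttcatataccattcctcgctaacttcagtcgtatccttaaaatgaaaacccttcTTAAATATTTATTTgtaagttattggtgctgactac
Art3, chr3R:15229479-15229579, + strand: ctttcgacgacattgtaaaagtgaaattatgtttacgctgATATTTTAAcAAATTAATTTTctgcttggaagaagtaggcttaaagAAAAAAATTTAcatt
Chro, chr3L:22878849-22878949, + strand: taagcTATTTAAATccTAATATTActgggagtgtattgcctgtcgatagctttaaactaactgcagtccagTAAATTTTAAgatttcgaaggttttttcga
CenG1A, chr2L:13835407-13835507, + strand: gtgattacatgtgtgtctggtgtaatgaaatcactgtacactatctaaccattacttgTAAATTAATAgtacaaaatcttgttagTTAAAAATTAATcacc

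In the first set the word lay close to the summit at CG7601 and CG18549, with its centre 2.5 bp away in each, and farther out at CG5611, at 42.5 bp. Ugalt, the strongest of all members, held no TAATTA and 1 run of A and T, 11 bases long. A run reached 14 bases at CG14100 and at ph-p. All 12 windows were at least 65.3% A+T.

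Positions relative to a start are in bp, negative upstream. The strongest member lay at -30 bp from the start of Ugalt (FBgn0024994), which encodes a UDP-galactose transporter, at 2703710 to 2704053 on X. Its signal value, a unit of the authors' peak caller, was 1265 in the pooled list, 627.9 in replicate 1 and 639.8 in replicate 2, and it ranked first each time. CG14100 had 521.6 in replicate 1 and 555 in replicate 2, and mRpL41, a mitochondrial ribosomal protein gene, had 491.5 and 574.6. Both were somewhat higher in replicate 2, and their summits in the replicates lay 2 bp and 4 bp apart. At px, a wing vein patterning gene, replicate 1 had 501.5 and replicate 2 had 283.8, so the rank was 4 in one list and 23 in the other. At Chro, which encodes a chromodomain protein of interbands and of the spindle matrix, the values were 460.1 and 287.8. At eIF6, a translation factor gene, they lay the other way, at 276.5 and 366.6.

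Of the 25 strongest members, 19 had the summit at a promoter, 4 in an intron and 2 between genes. Replicate 1 had the higher value in 17 of the 25, and TAATTA lay in the summit window of 7. The intronic ones were nearest to CG11050 (pooled signal 944.4), Adf1, which encodes an activator of the alcohol dehydrogenase gene (784), HmgZ, a high mobility group protein gene (639.7), and CG32772 (589.1). The intergenic ones were nearest to tara, a gene of the trithorax group (787.4, at -3152 bp from its start), and to CG13323 (632.6, 11909 bp from its start). CycB, the mitotic cyclin B gene, was nearest to the intergenic member with a signal of 434.4, at 3343 bp.

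Pooled signal separated members from the rest, as the rule implies. The median was 168 in members (quartiles 126 and 243, range 2.27 to 1265) against 83.6 in the other pooled peaks (70.6 and 100.2). Every one of the 100 strongest pooled peaks on the arms was a member, as were 146 of the next 150 and 224 of the following 250. Of ranks 501 to 1000, 224 of 500 were members, and of ranks 1001 to 1500 only 27 of 500. The strongest pooled peak outside the set had rank 135, a signal of 285.5 and the nearest gene CG9663, and it overlapped the list of replicate 1 only. Of the members 11.1% had a q value above 0.05, against 81.2% of the other pooled peaks.

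**Figure D1:**
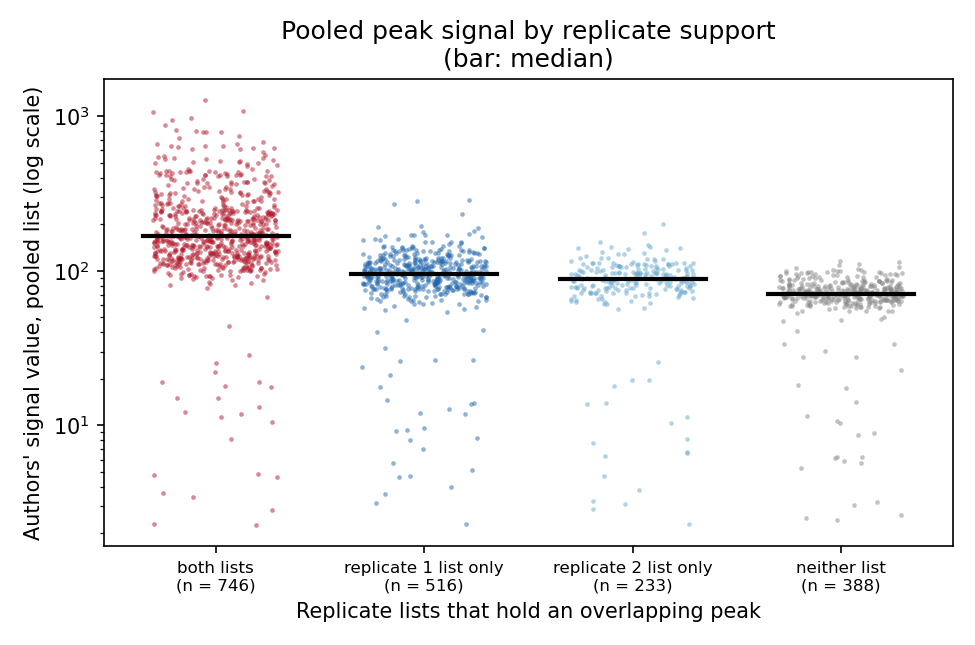
Pooled signal value (log axis) of each pooled peak on the named arms, by which replicate lists hold an overlapping peak; points are peaks and the bar is the median. Members in both lists have a median of 168, against 94.7 for the list of replicate 1 only, 88.1 for that of replicate 2 only and 71.2 for neither, and a tail of weak values below 50 appears in every class.

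The weakest members did not stand on summits of their own. There were 24 members with a signal under 50, and all 24 overlapped a stronger pooled peak. In all 26 members did so, with a median signal of 12.6, and 25 of them shared their replicate peak with another member. The weakest was nearest to sm, an RNA-binding protein gene, with 2.27 in the pooled list but 69.2 and 54.7 at the replicate peaks it overlapped, whose summits lay 417 bp apart. Ids showed the sharing in a pair. Its members with pooled signals of 112.3 and 13.1 both rested on replicate peaks with 81.0 and 59.5. The lowest signal among the other members was 67.1, and merging overlapping members left 721 separate places.

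The overlap threshold itself decided few memberships. Just inside it were members nearest to CG5953 (30 bp in the smaller of the 2 overlaps), sea (65 bp), org-1 (69 bp) and Csk (70 bp). Just outside were pooled peaks nearest to CG42808, which missed a replicate peak by 22 bp, sea (36 bp) and CG9663 (45 bp). The gene sea was thus nearest to a peak on each side, with pooled signals of 218 inside and 130.7 outside.

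Members lay at promoters more often than the other pooled peaks did. The summit lay within 500 bp of an annotated start in 438 of 746 members (58.7%, Wilson 95% interval 55.1 to 62.2), where the share over all pooled peaks on the arms was 46.1%. It was 37.9% (35.1 to 40.8) in the other pooled peaks. The classes outside the set differed among themselves. The share was 51.9% (45.5 to 58.3) for the list of replicate 2 only, an interval that overlaps that of members. It was 37.8% (33.7 to 42.0) for that of replicate 1 only and 29.6% (25.3 to 34.4) for neither. Introns held 28.4% of members (25.3 to 31.8) against 38.9% of the others, and intergenic sequence 10.1% (8.10 to 12.4) against 17.4%. Coding sequence held 2 members (0.268%) against 39 others (3.43%), and 7 members lay in 5' UTRs, 3 in 3' UTRs and 9 in non-coding exons. Intervals here and below cover the counting of peaks or genes, and peaks of 1 pair of libraries are not replicates of the experiment.

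The promoter share moved with signal. With the pooled peaks cut into 3 equal classes by signal, promoters held 63.2% of 551 members in the strongest class (59.1 to 67.1) and 48.1% of 77 other peaks (37.3 to 59.0). The intervals all but met, and within that class members were also stronger, with median signals of 203 and 142. In the middle class the shares were 47.0% of 164 members and 42.1% of 463 others, with overlapping intervals. In the weakest class they were 41.9% of 31 members and 33.3% of 597 others, also overlapping. Those 31 include the 24 members with a signal under 50, which all overlapped a stronger pooled peak. The part of signal in the difference between members and others was not tested further.

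**Figure D2:**
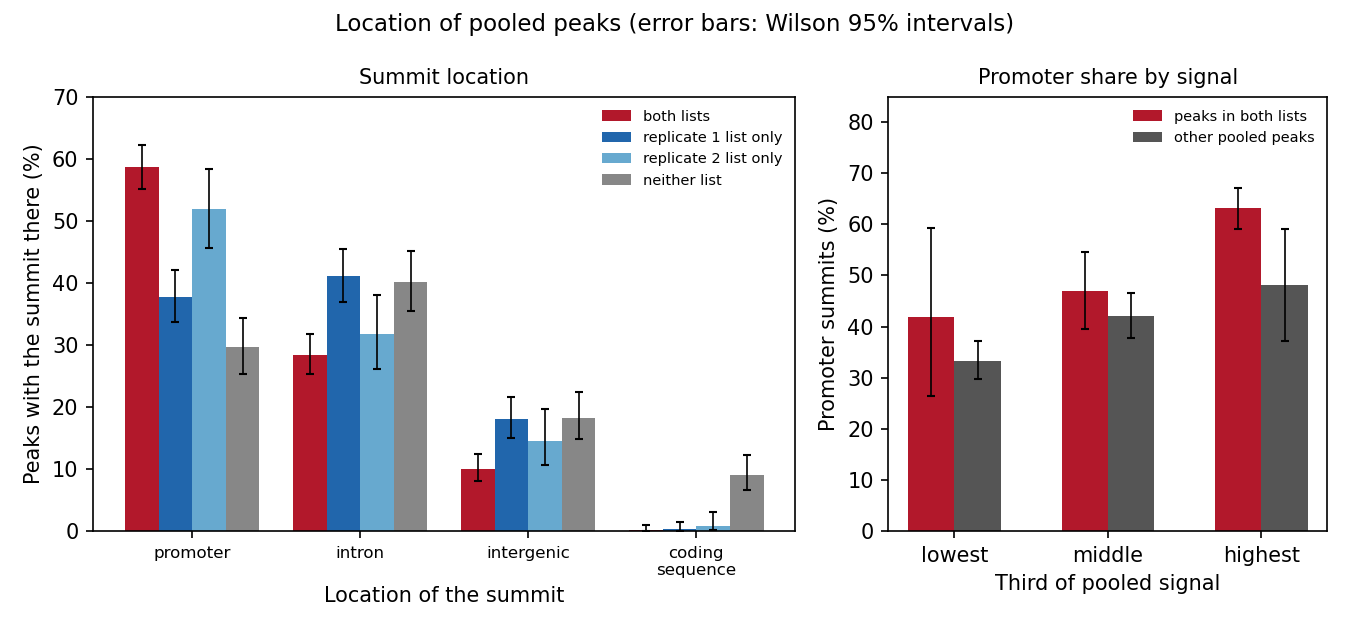
Share of peaks (%) with the summit in each location for 4 classes of replicate support (left), and the promoter share (%) by class of pooled signal for members and other pooled peaks (right); bars are shares and error bars are Wilson 95% intervals. Members have the highest promoter share, 58.7%, and coding sequence holds few peaks outside the class found in neither list; on the right the share is highest in the strongest class for both.

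Promoter members lay upstream of the start in most cases. Of the 438 promoter members, 375 (85.6%, 82.0 to 88.6) had the summit upstream of the nearest start, with a median position of -129.5 bp (quartiles -208 and -70). Among the 431 other promoter peaks 79.6% (75.5 to 83.1) did, with a median of -111 bp. In the list of replicate 1 only the share was 84.6% (78.9 to 89.0), about that of members, with a median of -151 bp. It was 80.2% (72.2 to 86.3) for that of replicate 2 only and 70.4% (61.5 to 78.0) for neither. Starts of 2 genes on opposite strands lay within 500 bp of the summit in 160 members (21.4%, 18.7 to 24.5), where the share over all pooled peaks was 15.3% and in the other pooled peaks 11.3%. Counted among promoter peaks alone, 36.5% of members (32.2 to 41.1) and 29.9% of the others (25.8 to 34.4) had such starts, so the intervals overlapped once location was held. The order of the 2 starts was not checked, so genes transcribed towards each other count too. CG7601, Tcs5, Art3 and CG5611, whose sequences are shown above, had such starts. Tcs5 encodes the kinase of the KEOPS complex, which acts in tRNA modification, and Art3 an arginine methyltransferase.

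**Figure D3:**
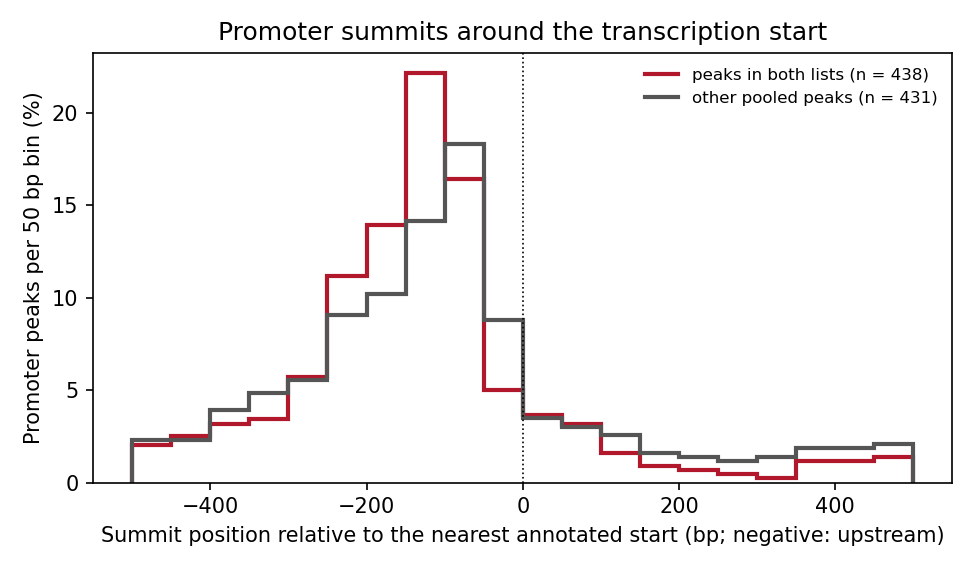
Position of promoter summits relative to the nearest annotated start (bp, negative upstream), as the percentage of promoter peaks per 50 bp bin for 438 members and 431 other pooled peaks. Both classes peak just upstream of the start, with medians of -129.5 bp and -111 bp.

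Distances to starts were shorter in members by some medians and not by others. The median distance from an intronic member to the nearest protein-coding start was 2002 bp, against 3750 bp for the other intronic peaks, and for intergenic peaks it was 4131 bp against 5563 bp. Intergenic peaks of the list of replicate 2 only lay nearer than members, with a median of 1869 bp (n = 34). Over all locations the medians were 359.5 bp and 1485 bp. The members spread over the large arms in similar density, from 4.89 per Mb on 3R to 6.42 on 2L, with 5.58 on 2R, 5.26 on 3L and 6.33 on X. They made up between 35.5% (3R) and 44.2% (2R) of the pooled peaks of those arms. None of the 746 lay on chromosome 4 or Y, each of which had 1 pooled peak.

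The summits of members were rich in A and T. Mean A+T content in the 101 bp around the summit was 68.4% ± 9.31 (SD, n = 746 members), against 63.7% ± 11.3 in the other 1137 peaks, while 300 bp to the right it was 56.1% and 55.4%. Peaks found in the list of replicate 1 only had the same mean as members, 68.4% ± 8.45 (n = 516). Those in the list of replicate 2 only had 60.2% ± 10.7 (n = 233), and those in neither 59.6% ± 12.6 (n = 388). At the centre of the profile members reached 70.2%, and 90 bp to the right they were at 58.1%. A run of at least 8 A or T bases, as marked in the second set of sequences, lay in 81.5% of member summits (78.6 to 84.1) and 47.9% of their right flanks. The shares were 68.2% and 42.9% in the other pooled peaks, 79.3% at summits of the list of replicate 1 only and 61.8% at those of replicate 2 only.

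**Figure D4:**
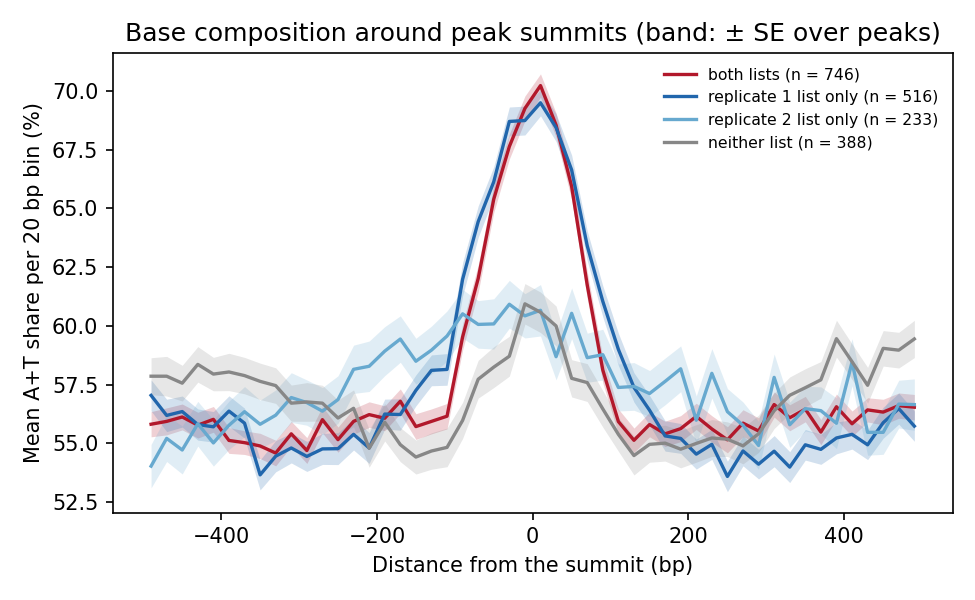
Mean A+T share (%) per 20 bp bin against distance from the summit (bp) for the 4 classes of replicate support; bands are ± 1 SE over peaks. Members and peaks of the list of replicate 1 only rise to about the same height at the summit, while peaks of the list of replicate 2 only and of neither list form a lower rise.

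TAATTA lay within 50 bp of the summit in 89 members (11.9%, 9.80 to 14.5), where the share over all pooled peaks was 10.2%, and in 9.15% (7.61 to 11.0) of the other pooled peaks. These intervals overlapped. In peaks of the list of replicate 1 only the share was 11.8% (9.31 to 14.9), about that of members. In windows of the same length to the right it lay in 3.89% of members and 5.80% of others, and to the left in 3.75% of members. The word is A+T-rich, as member summits are, and the part of base composition in these shares was not tested. Of the 89 members, 81 held 1 copy and 8 held 2. By location it was in 14.4% of promoter members (11.4 to 18.0) and 9.98% of other promoter peaks (7.49 to 13.2), with overlapping intervals, and in 8.96% of intronic members and 9.28% of other intronic peaks. Of 31 members in the weakest signal class none (0) held it, which allows a share of up to 11.0% (Wilson 95% limit), and in the middle and strongest classes 12.8% and 12.3% did. That weakest class holds the 24 members with a signal under 50, which all overlapped a stronger pooled peak. Its members had a median A+T of 51.5%, against 63.4% in the other peaks of the class.

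Other words were read on both strands in the same windows. TTTATG, a word of Caudal and Abd-B type sites, lay at 13.9% of member summits and in 10.5% of their right flanks, with 12.8% and 10.6% in the other pooled peaks. ATTTGCAT, the octamer bound by POU proteins, lay at 20 member summits (2.68%, 1.74 to 4.10) and in 6 right flanks (0.804%). In the others it was 1.85% and 2.02%, and the classes differed at summits. The shares there were 2.13% for the list of replicate 1 only, 0 of 233 for that of replicate 2 only and 2.58% for neither. GAGAG, the word of GAGA factor, was rarer at member summits, with 8.58% (6.78 to 10.8) against 16.8% (14.2 to 19.6) to the right and 19.0% to the left. The other pooled peaks held it at 10.6% of summits and 15.0% of right flanks. In peaks of the list of replicate 1 only the shares were 9.88% and 17.6%, near those of members. The part of base composition in these shares was not tested. TAATGG lay at 4.83% of member summits, GATAAG at 4.29%, CAGGTA at 2.01%, TATCGATA and CACGTG at 0.670% each and GGTCACAC at 0.536%. Over the other pooled peaks these 6 words lay at 4.84%, 4.93%, 1.41%, 0.792%, 0.792% and 0.440% of summits.

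Most genes near members had a single one. The 746 members were assigned by nearest protein-coding start to 654 genes, which is 5.35% of the 12217 genes that were nearest to any ranked peak. Of these 583 had 1 member, 59 had 2 and 12 had at least 3, and 118 had a further pooled peak outside the set. CHES-1-like, a forkhead gene, had 5 members with pooled signals of 90.3 to 319, 2 at promoters and 3 in introns. The 4 members of chinmo, which encodes a BTB zinc finger protein of neuronal temporal identity, lay from 1765 to 18419 bp from its start, with pooled signals of 126 to 377, and all pooled peaks of that gene were members. Tlk, the Tousled-like kinase gene, had 4, sbb, a developmental regulator, had 4 from 124 to 22037 bp from its start, and Raf, the kinase between Ras and MEK, had 3, in introns. Ids, the iduronate 2-sulfatase gene, had 5, of which 1 overlapped a stronger pooled peak. RYBP, a partner of Polycomb group proteins, CG5953, CG7560, CG43245 and Spn28Db had 3 each. In Tlk, RYBP, CG5953 and Spn28Db too, 1 member overlapped a stronger pooled peak and shared its replicate values with another member. The pooled signals of these weak members were 8.11, 28.4, 19.1 and 2.85. The members of Spn28Db lay 34861 to 42034 bp from its start.

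Genes of the Polycomb and trithorax groups, which keep developmental genes off or on through chromatin, were near members in 7 of 26 cases (26.9%, 13.7 to 46.1), beside 5.35% over all genes. Any pooled peak lay near 11 of the 26 (42.3%), where it did so for 1443 of all 12217 genes, so the share was high in the pooled list as a whole. The members included strong ones. ph-p, a subunit gene of Polycomb repressive complex 1, had 471.4 in replicate 1 and 364.6 in replicate 2, and its neighbour and paralogue ph-d had 160.3 and 71.2. Whether reads of near-identical stretches of ph-p and ph-d were split between them was not tested. Psc, another subunit gene of that complex, had 288.7 and 221.2. Trl, which encodes GAGA factor, had 307 and 174.8, and osa, a subunit gene of the Brahma remodelling complex, had 213.9 and 176.1. The member assigned to osa lay 13930 bp from its protein-coding start. E(z), the H3K27 methyltransferase gene, had 170.3 and 115.8, and tara had 406.9 and 361.8. Replicate 1 was the higher in all 7. The member of Psc counted as a promoter peak through another annotated start, since it lay at -4198 bp from the protein-coding start of Psc.

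Cytoplasmic ribosomal protein genes carried a member in 12 of 70 cases (17.1%, 10.1 to 27.6), beside 5.35% of all genes, and any pooled peak in 25 of 70 (35.7%). The strongest member of each had its summit at a promoter, from -135 to 25 bp of the protein-coding start. The only member of RpS20 was weak, with a pooled signal of 4.65. It shared its replicate values, 60.3 and 72, with a stronger member of signal 142. RpS27, with the peak at 25247417 to 25247615 on 3R, had 103.6 in replicate 1 and 166.6 in replicate 2, RpL7 had 83.4 and 146, RpS28b 61.7 and 107.5, and RpS21 51.1 and 102.4. All of these were higher in replicate 2. RpL32 was near equal, at 110.1 and 105.4. Mitochondrial ribosomal protein genes, which serve the organelle's own ribosomes, had members at 2 of 57 (3.51%, 0.968 to 11.9), near the share over all genes, mRpL41 and mRpL23, both among the 25 strongest. Translation factor genes had 3 of 29 (10.3%, 3.58 to 26.4, an interval that holds 5.35%), which were eIF6, eEF1gamma and eIF3c. The strongest member of eEF1gamma lay at -5726 bp from its protein-coding start.

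Lists of developmental genes also held members, to be read against 5.35% of all genes. Of 22 dorsoventral and mesoderm genes 7 had a member (31.8%, 16.4 to 52.7), and 10 had any pooled peak. They included tin, the homeobox gene needed for the heart (promoter, 21378678 to 21378847 on 3R), with 147.3 in replicate 1 and 108.4 in replicate 2, ths, a fibroblast growth factor gene, with 102 and 94.4, and Mef2, a muscle regulator, with 70.4 and 54.5. dpp, the BMP ligand gene, had 56.4 and 52.9, and its antagonist sog had 53.1 and 47.4. Of 13 trachea and epidermis genes 4 did (30.8%, 12.7 to 57.6), which were rib, vvl, shn and trh, and 7 had any pooled peak. The strongest member of vvl lay 33854 bp from its protein-coding start. Receptor tyrosine kinase signalling had 6 of 26 (23.1%, 11.0 to 42.1), and 11 with any pooled peak, with Raf at 152.5 and 180.4, the Egfr ligand gene spi at 99.7 and 55.3 and its antagonist aos at 160.2 and 76.1. Segment polarity, Wnt and Hedgehog genes had 3 of 17 (17.6%, 6.19 to 41.0), slp2, nkd and ptc, and 7 with any pooled peak. Notch signalling had 2 of 17 (11.8%, 3.29 to 34.3, an interval that holds 5.35%), numb and neur, and 4 with any pooled peak. Each of these intervals was wide, since the lists are short.

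Eye development genes, the setting in which Rough is best known, had a member in 4 of 27 (14.8%, 5.92 to 32.5), which were aos, aop, spi and dpp, all of them also parts of signalling pathways. Homeobox and Hox genes had 5 of 72 (6.94%, 3.0 to 15.2), close to the 5.35% over all genes, and they were tin, zfh1, vvl, NK7.1 and bcd. No member was nearest to ro itself (0 of 746). Insulator and boundary protein genes had 3 of 14 (21.4%, 7.57 to 47.6), Adf1, Chro and BEAF-32. Heat shock genes had 2 of 18 (11.1%, 3.10 to 32.8), Hsp27 and Hsp83. Neuronal differentiation genes had 1 of 16 (6.25%, 1.11 to 28.3), elav. The heat shock and neuronal intervals hold 5.35%. Any pooled peak lay near 3 of the 14, 5 of the 18 and 2 of the 16. It did so for 5 of the 27 eye development genes and 14 of the 72 homeobox and Hox genes. Chemoreceptor genes had 1 of 170 (0.588%, 0.104 to 3.26), Gr89a, and cuticle protein genes 0 of 89, which allows a share of up to 4.14% (Wilson 95% limit).

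The replicates placed the members at nearly the same base. The median gap between replicate summits was 23 bp (quartiles 8.25 and 43), it was at most 50 bp in 609 members (81.6%), and it was over 100 bp in 20. Across the 746 members, the signal values of the lists were correlated with rho = 0.669 (Spearman) and, after log10, r = 0.773 (Pearson). This describes peaks chosen by presence in both lists, from 1 pair of libraries. Members took up 732 of 1028 peaks on the arms in the list of replicate 2 (71.2%) and 756 of 1420 in that of replicate 1 (53.2%). Where a pooled peak had only replicate 1 behind it, 93.4% had a ranked candidate in replicate 2. These candidates had a median signal of 33.9 and a median rank of 2712 of 121684, against 75.7 and 468.5 for members. Ranked candidates were common in general: peaks in neither list had one in 99.2% of cases in replicate 1 and 96.6% in replicate 2.

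The balance between replicates differed along base composition and between gene groups. Replicate 1 had the higher value in 534 members (71.6%), and the median ratio of replicate 1 to replicate 2 was 1.20 (quartiles 0.972 and 1.54). The lists were not normalised to each other here, so each ratio is read against that median. In the 237 members with the lowest A+T content, up to 65.3%, the median ratio was 1.05, in the 254 of the middle class it was 1.21 and in the 255 with the highest, from 73.3%, it was 1.38. Replicate 2 was higher in 43.5%, 28.0% and 14.9% of these classes. The order was the same within promoter members (1.01, 1.23 and 1.31) and within intronic members (1.12, 1.16 and 1.495).

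Ribosomal protein members stood at the low end of that ratio. Their 13 members, the weak one of RpS20 among them, had a median ratio of 0.720 (range 0.498 to 1.14). Replicate 2 was higher in 10 of 13, beside 28.4% of all members. They were also low in A+T, with a median of 50.5% against 70.3% in all members. The 120 promoter members of the lowest A+T class had a median ratio of 1.01. Their median A+T was higher, at 60.4%, so this comparison does not match composition. The 11 Polycomb and trithorax group members had a median ratio of 1.47 (range 1.01 to 2.25), with replicate 1 higher in all 11 and a median A+T of 67.3%. Replicate 1 was also higher in all 7 dorsoventral and mesoderm members (median ratio 1.29), all 5 of trachea and epidermis (1.17) and all 4 of eye development (1.70), lists that share genes such as dpp, spi and vvl with others. Median ratios were 1.21 at promoters, 1.19 in introns and 1.24 between genes, and 1.23 with TAATTA in the summit window and 1.20 without it. What lies behind the unequal ratios was not tested.

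**Figure D5:**
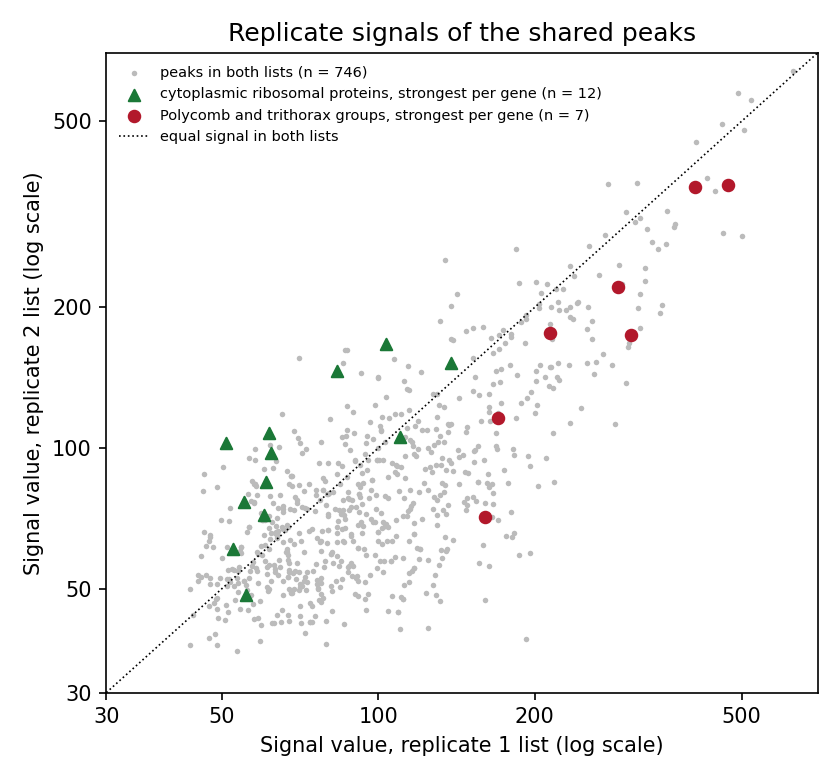
Signal value of the 746 members in the list of replicate 1 against that of replicate 2 (log axes), with the strongest member of each of 12 ribosomal protein genes as triangles and of 7 Polycomb and trithorax group genes as circles; the dotted line marks equal values. The triangles lie mostly above the line and all circles lie below it.

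The extremes of the ratio, named after their values were seen, were numb at one end (promoter, 9449474 to 9449853 on 2L), with 192.2 in replicate 1 and 39.0 in replicate 2, and CG14762 at the other, with 70.4 and 156.2. The gene numb encodes an inhibitor of Notch. RasGAP1, which switches Ras off, had 163.5 and 55.9, and Alp12, an alkaline phosphatase gene, 196.3 and 59.6. On the side of replicate 2, after CG14762, came RpS21, bark, a tricellular junction gene, with 46.3 and 88.1, and sp3 with 134.6 and 252.9. The ratio of replicate 1 to replicate 2 was 4.93 at numb and 0.451 at CG14762.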

How the data were processed

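The authors deposited peak lists on dm6 per the labels: thresholded and ranked lists for each replicate, called per sample, and over both replicates pooled. No aligner or peak caller is named in those labels (not given in the sources used here). Column 7 of the deposited lists is the authors' signal value, with no scaling between lists stated. Deposited q-values are −log10 q on a log10 scale that reaches slightly below 0 in the pooled lists, and the deposited ranked lists give the −log10 of the irreproducible discovery rate (IDR), whose thresholded peaks have at least 2. In the ranked lists, 16 columns matched no sample and were not used.

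Peaks were placed by summit on Ensembl release 115 (BDGP6 6.54), without transposable elements and pseudogenes, with promoters (500 bp) first, then untranslated and coding exons, exons without coding sequence, introns and intergenic sequence, and assigned to the nearest protein-coding start. Replicate values come from the replicate peak that overlaps the member. Words were read on both strands in 101 bp windows at the summit and 300 bp away. No test was run: there is 1 group, and the members were chosen from these lists. Members, the 16 gene lists and the words were chosen with earlier results of these data known. Of the list symbols, glass, calypso and Z4 were not matched, and several were matched through synonyms. Named genes are the nearest genes of the 25 strongest and 5 weakest members, genes with at least 3 members, up to 4 per list by signal, the 5 strongest intronic and intergenic members, those at the overlap threshold and those with sequence shown. A result that this rule would name is not reported here. Further list genes with a member were named after their values were seen. Sequences come from the strongest such members outside 2R. The overlap, location and word steps were tested on simulated data. Alternatives were other overlap rules, promoter widths, windows and gene assignments, the conservative pooled list, each replicate alone, and peaks at q of at most 0.05, which was chosen after seeing the data. The software was matplotlib 3.10.9, scipy 1.17.1, pandas 2.3.3 and numpy 2.4.6 under Python 3.11.15.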

Additional observations from a re-analysis of the deposited data

How the results depend on the processing

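Of 52 alternative values over 15 settings, 42 stayed within the interval of the reported value, or for counts within 1.5 times it, and 10 moved. Leaving out each replicate, so that overlap with the other alone was asked, gave 979 to 1262 peaks, promoter shares of 50.2% to 57.1% and median signals of 126 to 143; without replicate 2 the count was 1262 and the promoter share 50.2%. A promoter of 250 bp gave 46.2% of members (27.5% of other pooled peaks) and one of 1000 bp gave 70.8% (47.5%). The median signal was 176 in the stronger part of the pooled list and 180 at q of at most 0.05. TAATTA lay in 6.43% of members within 25 bp of the summit and 19.0% within 100 bp. Peaks in both lists numbered 685 to 753 under the other overlap rules and the conservative list. Summit gaps gave no value with the rule on summits within 100 bp or with a replicate left out. No paired analysis was possible because there was 1 group. Depth is unknown, so a peak missing from a replicate list may be present below its threshold.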

Other observations

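TTCTTAAA, a word chosen after seeing the data, lay within 50 bp of the summit in 29 members (3.89%, Wilson 95% interval 2.72 to 5.53), in none (0) of their right flanks and in 4 left flanks. In the other pooled peaks it lay at 21 summits (1.85%), 6 right flanks and 5 left flanks, and the classes differed. It lay at 16 of 516 summits of the list of replicate 1 only (3.10%, 1.92 to 4.98), an interval that overlaps that of members, at 1 of 233 of replicate 2 only and at 4 of 388 in neither list. The strongest members that held it were nearest to ph-p, whose window shown above has the word running into the marked run, PNPase, Tina-1, CG3552 and LPCAT. All but LPCAT, in an intron, were at promoters. The word is A+T-rich, and the part of base composition was not tested.

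The ranked pooled list held 2113 peaks with a −log10 IDR of at least 2, and 144 of these were not in the thresholded list, 64 of them on the named arms. None (0) of the 64 overlapped a thresholded peak of both replicates, although 25 overlapped ranked peaks of both replicates that passed the same IDR level. The strongest of these 25 would have ranked second among members. It had a signal of 1096, in an intron of cbt, a zinc finger gene, at 480926 to 481246 on 2L. It was followed by peaks nearest to Lk6, a kinase gene (673.7), larp, an RNA-binding protein gene (508.2), tara (452.4), CG18428 (422) and trx, the trithorax gene (367.7). These peaks are in no member count, and why they are outside the thresholded lists was not tested.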
